A study of Bos taurus with 15 samples.

Results

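The genes of nuclear import, nuclear export and the nuclear pore were followed through bovine preimplantation development. They were the genes whose platform symbol began with KPNA, KPNB, IPO and a digit, XPO, TNPO, NUP and a digit, RANBP, RANGAP or NXT, or was RAN, RCC1, NXF1, CSE1L or TPR. The rule found 50 genes of 9155 that the platform named by 1 symbol, measured by 82 probe sets, and used no measured value. Each gene was read from its probe set with the highest mean over all arrays, and 22 members had more than 1. By role they were 5 importins alpha, 9 import receptors of the importin beta family, 5 exportins, 2 mRNA export receptors, 5 genes of the Ran cycle, 22 of the pore and 2 other Ran-binding proteins. No probe set was named KPNB1, KPNA5, KPNA6, XPO5 or XPO6. All 50 entered the test, and 49 had a mean signal above 50.87, the median of all probe sets and arrays. IPO4, the exception, was listed at 1.00 on 14 of 15 arrays.

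Proteins and RNAs cross the nuclear envelope through nuclear pore complexes, carried by transport receptors. Importin alpha adaptors bind the nuclear localization signal of a cargo and hand it to importin beta for import. Receptors of the importin beta family and exportins bind other cargoes directly, and the small GTPase Ran, in its GTP form inside the nucleus, releases imported cargo and loads exported cargo. The oocyte stores these transcripts before fertilization, and the embryo's own transcription takes over during cleavage. Oocytes are known for an importin alpha of their own, KPNA7.

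The arrays held total RNA of bovine (Bos taurus) oocytes and of embryos made by maturing oocytes of ovarian follicles in culture, fertilizing them in vitro and culturing the embryos. No further treatment was applied, cumulus cells were removed by vortexing after fertilization, and genotype, breed, donor age and embryos per array were not given. Oocytes, morulae and blastocysts had 3 arrays each, 1-cell embryos had 2, and 2-cell, 4-cell, 8-cell and 16-cell embryos had 1 each, so these 4 stages had no replicate check. The labels call the replicates biological without naming cultures or animals, so a p-value here reflects how far these arrays of a stage differ, which may be technical. A signal is an intensity on a linear scale, and changes are differences of log2(signal + 16), tested with limma over all probe sets. Called means an adjusted p under 0.05.

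Markers of the labelled stages were present: all 9 measured oocyte genes fell from oocyte to morula, and 5 of 9 trophectoderm genes rose, with 7119.7, 10988 and 10132 for KRT18 in blastocysts. The arrays numbered 3 stood apart from the others of their stage: in oocytes, morulae and blastocysts, between 5 and 9 members differed by at least 4-fold between array 3 and array 1 or 2, against 0 or 1 between arrays 1 and 2. Of the 50 members, 10 were lowest on array 3 of the oocyte, morula and blastocyst stages alike (14.6% of all genes were), and 8 were highest on array 3 in all 3 stages (9.44%). Arrays oocyte 2 and 3, 1-cell 2, morula 3, blastocyst 3 and the 4 single arrays carried poly(A) spike-in transcripts, and the other 6 did not. For the GAPDH control, middle signal over 3' signal, a sign of RNA completeness, was 0.0374 to 0.237 on oocyte and 0.1 to 0.625 on morula arrays. For the eIF-4E control this ratio was 0.0388 to 0.235 on oocyte and 0.0636 to 0.887 on morula arrays. The median of the morula arrays was above that of the oocyte arrays for GAPDH (0.367 and 0.0977) and below it for eIF-4E (0.0842 and 0.0964). Of 19 cumulus and granulosa cell markers, cells that surround the oocyte, 4 fell and 1 rose from oocyte to morula. Their summed signal was 6799 to 7595 in oocytes and 9720.1 to 12892 in morulae, where HAS2 alone had 8972, 8622 and 9257. Without HAS2 the sum was 5229 to 6239.6 in oocytes and 1098 to 3635 in morulae. Single markers ranged widely in oocytes: FSHR was at most 9.56, while STAR had 2537, 2958 and 2640 and VCAN 1065, 713 and 1396. The part of these differences in the results was not tested. In these whole-embryo RNAs, fewer cells of a type and less RNA per cell cannot be told apart.

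KPNA7 was the member with the largest change between oocyte and morula. Its signals were 6329, 14177 and 7143 in oocytes, 12208 and 8984 in 1-cell embryos, 7766, 6393, 9519 and 1350.1 at 2, 4, 8 and 16 cells, then 32.9, 48.0 and 36.1 in morulae, and 19.2, 29.3 and 26.0 in blastocysts. Every array up to the 8-cell stage lay above every array from the 16-cell stage on, and the 16-cell array lay between the early arrays and the morulae. KPNA7 fell by 7.30 on the log2 scale (SE 0.39, limma adjusted p = 1.09e-05) from oocyte to morula, and it had no called change from oocyte to 1-cell embryo (0.28) or from morula to blastocyst (-0.43), although the blastocyst arrays lay below all morula arrays. The fall was known from earlier results of these data. The change of KPNA7 was -7.59 within the arrays with spike-in signal and -6.83 within those without.

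The other 4 importins alpha were not lower in morulae than in oocytes by their means, and none of them had a called change in any comparison. KPNA2, a widely used adaptor of dividing cells, had signals of 3111, 2710.4 and 3964 in oocytes, 6337 and 5006 in 1-cell embryos, 5457, 6633, 5113 and 2160.2 at 2, 4, 8 and 16 cells, then 5549, 3326 and 3465 in morulae, and 4827, 5885 and 3134 in blastocysts. These values overlapped between oocyte and morula, with a change of 0.31 (SE 0.33, limma adjusted p = 0.577), and both 1-cell arrays lay above all oocyte arrays. KPNA3 had signals of 2011, 1293 and 289 in oocytes, 1073 and 1115 in 1-cell embryos, 1564, 1819, 845 and 1791 at 2, 4, 8 and 16 cells, then 3261, 3379 and 1058 in morulae, and 4135, 5013 and 651 in blastocysts, low on array 3 of each replicated stage. Its change of 1.29 (SE 0.90, limma adjusted p = 0.371) passed with the replicate number as a block (adjusted p = 0.0342) and without the arrays numbered 3 (1.03, adjusted p = 0.0418). It did not pass with quantile normalization (0.92, limma adjusted p = 0.507) or with the spike-in class as a block (0.76, limma adjusted p = 0.466).

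KPNA4 was near the floor of the scale in oocytes and uneven afterwards. Its signals were 13.9, 1.13 and 14.7 in oocytes, 12.8 and 9.77 in 1-cell embryos, 2397, 2.63, 26.8 and 364 at 2, 4, 8 and 16 cells, then 283, 236 and 3.78 in morulae, and 266, 149 and 6.54 in blastocysts. The 2-cell value stood alone: it exceeded the next highest array by more than 4-fold, while the 4-cell array was again at the oocyte level. The change to the morula was 2.19 (SE 1.11, limma adjusted p = 0.212), and 3.60 without the arrays numbered 3 (adjusted p = 8.44e-04). Without morula 3 alone it also passed (adjusted p = 0.0279). A second, dimmer probe set of KPNA4 rose by 0.95 (limma adjusted p = 0.0210). It did not show the 2-cell peak, with 18.8 there against 15.7, 20.0 and 13.5 in oocytes. Its highest values were 355 on the 8-cell and 267 on the 16-cell array. KPNA1 had signals of 75.0, 184 and 15.9 in oocytes and, in morulae, 390.3, 205 and 17.5, which overlapped widely. It was low on array 3 of both stages and had a change of 0.79 (SE 1.27, limma adjusted p = 0.728). Within the arrays with spike-in signal the direction turned for both, with -1.25 for KPNA1 and -0.21 for KPNA4.

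**Figure D1:**
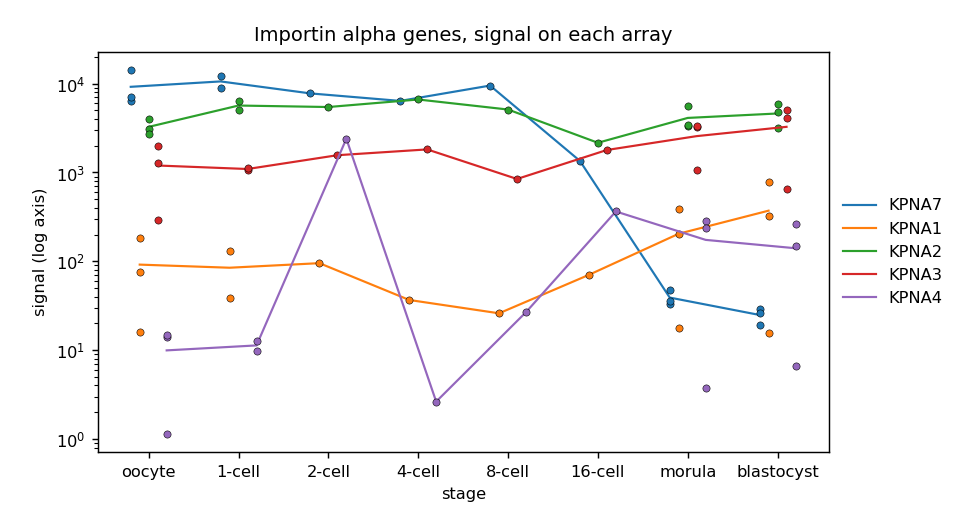
Signal of the 5 importin alpha genes (vertical axis, log scale) at the 8 stages, with points for arrays and lines joining stage means. KPNA7 leaves its oocyte level at the 16-cell array, at 1350.1, and is at 32.9, 48.0 and 36.1 in morulae, while KPNA2 is at 5549, 3326 and 3465 there.

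To compare KPNA7 with each other importin alpha, the difference of their log2 values was taken within each array, 4 pairs in all. Only the movement of these differences is read, since levels of different probe sets cannot be set against each other. KPNA7 minus KPNA2 was 1.42 ± 0.84 (SD, n = 3) in oocytes and 0.89, 0.51, -0.05 and 0.89 at the 1-, 2-, 4- and 8-cell stages. It was -0.67 in the 16-cell array, -6.20 ± 0.58 (SD, n = 3) in morulae and -6.79 in blastocysts. Most of the movement lay between the 8-cell array and the morulae. From oocyte to morula the difference changed by -7.62 for KPNA2, -8.10 for KPNA1, -8.60 for KPNA3 and -9.49 for KPNA4. The size for KPNA4 is not resolved, since KPNA4 lay below the median signal of its array in all oocytes and in morula 3. In each pair all 3 morula arrays lay below all 3 oocyte arrays (two-sided exact permutation p = 0.1, the smallest that 3 arrays against 3 allow). KPNA7 minus KPNA3 was 3.47 in the 8-cell array, -0.40 in the 16-cell array and -5.39 ± 0.90 (SD, n = 3) in morulae. KPNA7 minus KPNA4 was 8.43 in oocytes and already 1.69 in the 2-cell array, where the brighter probe set of KPNA4, used here, was high. It was 7.80 again in the 8-cell array.

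**Figure D2:**
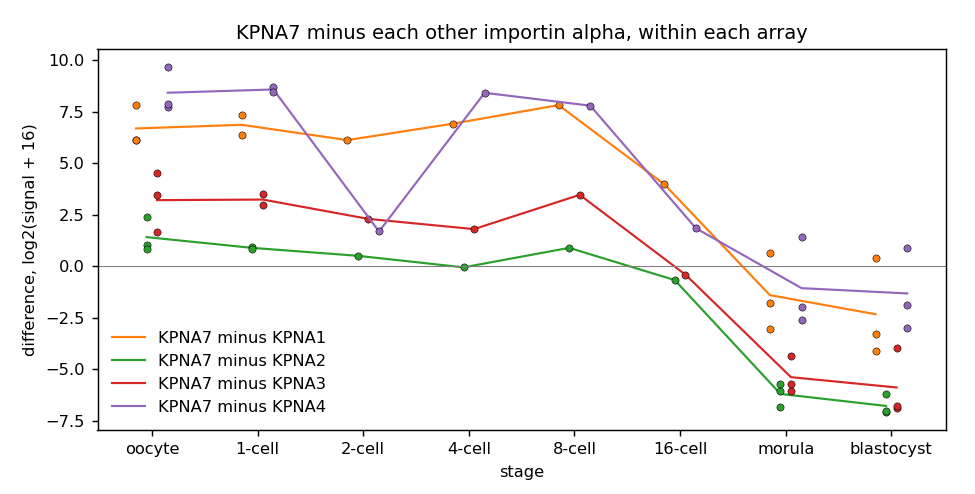
Difference of log2(signal + 16) between KPNA7 and each other importin alpha within an array (vertical axis) at the 8 stages, with points for arrays and lines joining stage means. All 4 differences fall between the 8-cell array and the morulae, from 0.89 to -6.20 for KPNA2.

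Across all 50 members, 7 rose and 3 fell from oocyte to morula, and 40 did not pass. These shares, 14% and 6%, stood near those of all genes, of which 17.8% rose and 8.67% fell. The median change was 0.43, against 0.14 over all genes. For 21 of the 50 members the values of oocytes and morulae did not overlap, the 10 called among them, or 42% against 43.3% of all genes. An unadjusted p under 0.05 was reached by 22 members, or 44% against 40.4% of all genes. With the replicate number as a block 9 rose and 7 fell (20.8% and 10.6% of all genes). Scaling mattered for the split: 7 were higher and 9 lower after quantile normalization (15.8% and 11.3% of all genes), and 7 and 7 after the arrays were centred on their medians (16.2% and 11.1%), while the median change of all genes moved from 0.14 to 0.00 and -0.04. Without the arrays numbered 3 there were 15 higher and 8 lower (26.4% and 12.9% of all genes). All 10 called members kept their direction within both spike-in classes, as they had to, since their oocyte and morula arrays did not overlap. Of these stages, oocyte 2, oocyte 3 and morula 3 had spike-in signal, and oocyte 1, morula 1 and morula 2 had none.

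Import receptors other than importin alpha had mostly positive changes. Of 9, 2 rose, none fell and 7 did not pass, with a median of 0.75 and 8 positive changes. Here 22.2% rose, against 17.8% of all genes, of which 56.8% had a positive change. IPO8, which imports SMAD and Argonaute proteins, had signals of 228, 35.4 and 93.7 in oocytes, 38.1 and 3.03 in 1-cell embryos, 11.5, 3.74, 9.06 and 1054 at 2, 4, 8 and 16 cells, then 656, 765 and 714 in morulae, and 2370.1, 2297 and 568 in blastocysts. It was low through cleavage and high from the 16-cell array on, and all morula arrays lay above all oocyte arrays. IPO8 rose by 2.71 (SE 0.72, limma adjusted p = 0.0252), but its second, dimmer probe set had a change of -0.23 and did not pass. Leaving out oocyte 2, oocyte 3 or any single morula array ended the call (adjusted p = 0.0945, 0.05, 0.0635, 0.0751 and 0.0541). The change was 1.57 within the arrays without spike-in signal and 3.28 within those with it.

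TNPO3 imports splicing factors of the SR family. Its signals were 938, 574 and 532 in oocytes, 549 and 325 in 1-cell embryos, 2389.6, 239, 466 and 2870.1 at 2, 4, 8 and 16 cells, then 4352, 3132 and 1632 in morulae, and 2404, 2826 and 1220.1 in blastocysts, high on the 2-cell array and again from the 16-cell array on. TNPO3 rose by 2.07 (SE 0.49, limma adjusted p = 0.0157), and leaving out oocyte 2, morula 1 or morula 2 ended the call (adjusted p = 0.0554, 0.0653 and 0.0580). IPO7, an importer of ribosomal proteins and histone H1, went from 37.8 on the 8-cell to 752 on the 16-cell array, with 846, 804 and 47.5 in morulae and 1492, 1625 and 1324 in blastocysts. Morula 3 stayed at the oocyte level of 179, 188 and 48.3, and the change of 1.38 did not pass (SE 0.95, limma adjusted p = 0.363). TNPO1 and TNPO2, which import RNA-binding proteins with PY signals, had changes of 0.71 and 0.83, IPO11 0.75, the histone importer IPO9 0.20, and IPO13, which carries cargo both ways, -0.01. None of these passed, and the signals of TNPO1, TNPO2 and IPO9 overlapped between the stages.

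Of 5 exportins 2 rose, none fell and 3 did not pass, with a median change of 1.49, where 17.8% of all genes rose and 8.67% fell. XPO7, an exportin with a broad set of cargoes, had signals of 1289.8, 969.9 and 838 in oocytes, 2991 and 1295 in 1-cell embryos, 3168, 3092, 3904 and 3849 at 2, 4, 8 and 16 cells, then 6302, 7548 and 5047 in morulae, and 5638, 2134 and 4813 in blastocysts. Every array after the oocyte lay above all oocyte arrays, 1 of the 1-cell arrays only just. XPO7 rose by 2.59 (SE 0.45, limma adjusted p = 0.00287) at this probe set, and a second, dimmer one had 0.11 and did not pass. XPO1, which exports proteins with leucine-rich signals, had signals of 589.6, 537 and 1062 in oocytes, 699.8 and 1298 in 1-cell embryos, 1468, 514, 859 and 3585 at 2, 4, 8 and 16 cells, then 3655, 3023 and 1623 in morulae, and 2435, 4990.4 and 2071 in blastocysts. XPO1 rose by 1.89 (SE 0.49, limma adjusted p = 0.0238), without overlap between oocytes and morulae. The change was 1.09 within the arrays with spike-in signal, 2.46 within those without it and 2.53 without the arrays numbered 3 (adjusted p = 0.00542). Leaving out oocyte 1, oocyte 2, morula 1 or morula 2 ended the call (adjusted p = 0.0753, 0.0836, 0.0903 and 0.0827).

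The other exportins missed the threshold. CSE1L, which returns importin alpha to the cytoplasm, had signals of 2051, 1802 and 836 in oocytes, 1829.6 and 897 in 1-cell embryos, 651, 403, 67.3 and 2858 at 2, 4, 8 and 16 cells, then 4521, 4206 and 3693 in morulae, and 4005, 5348 and 2121 in blastocysts. All morula arrays lay above all oocyte arrays, and the change was 1.49 (SE 0.48, limma adjusted p = 0.0579). It passed with the replicate number as a block (adjusted p = 0.0213). XPOT, the exportin of transfer RNA, had 981, 1138 and 594 in oocytes and, in morulae, 2060.3, 1974 and 1876, again without overlap, and a change of 1.16 (SE 0.48, limma adjusted p = 0.125). XPO4, an exportin of the translation factor EIF5A, had 3662, 3494 and 691 in oocytes and, in morulae, 5266, 3989 and 395, low on array 3 of both stages, and a change of -0.02 (SE 1.00, limma adjusted p = 0.994). Of the messenger RNA export pair, NXF1 had 53.7, 68.6 and 99.9 in oocytes and, in morulae, 185, 190.1 and 63.9 and a change of 0.76 (SE 0.52, limma adjusted p = 0.358), and its partner NXT1 had 0.80. NXF1 had -0.31 within the arrays with spike-in signal and passed without the arrays numbered 3 (1.41, adjusted p = 0.0479).

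Among the 5 genes of the Ran cycle, RANGAP1 rose and the other 4 did not pass, or 20% risen against 17.8% of all genes. All 5 changes were positive, where 56.8% of all genes had a positive change. RANGAP1, which makes Ran hydrolyse its GTP in the cytoplasm, had signals of 162, 74.5 and 175 in oocytes, 278 and 669 in 1-cell embryos, 744, 331, 323 and 2553 at 2, 4, 8 and 16 cells, then 2708, 2385 and 3159 in morulae, and 1042, 385 and 1625 in blastocysts. Every array after the oocyte lay above all oocyte arrays, and the 16-cell and morula arrays were the highest. RANGAP1 rose by 4.24 (SE 0.58, limma adjusted p = 7.74e-04), from 137 ± 54.8 to 2751 ± 388 (SD, n = 3 each). From morula to blastocyst it had a change of -1.63 (SE 0.58) that did not pass (limma adjusted p = 0.483), with all blastocyst arrays below all morula arrays.

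RAN itself had signals of 6289, 5772 and 6242 in oocytes, 5987 and 7240.2 in 1-cell embryos, 4117, 4723, 5708 and 8294 at 2, 4, 8 and 16 cells, then 9869, 9496 and 8487 in morulae, and 9106, 11267 and 8941 in blastocysts. All morula arrays lay above all oocyte arrays, but the change was small, 0.60 (SE 0.21, limma adjusted p = 0.0688). It passed without the intensity trend (adjusted p = 0.0482) and without the dimmest probe sets (adjusted p = 0.0285). Under both scalings it was smaller and did not pass. It was 0.49 with quantile normalization (limma adjusted p = 0.115) and 0.42 with median centring (limma adjusted p = 0.247). RANBP1, which assists RANGAP1, had 8697, 8144 and 10016 in oocytes and, in morulae, 11783, 12114 and 11708 and a change of 0.41 (SE 0.17, limma adjusted p = 0.130). RCC1, the exchange factor that loads Ran with GTP on chromatin, was low on every array but one: it had 70.7, 97.8 and 79.5 in oocytes and, in morulae, 112, 134 and 80.1, and 1443 on the 4-cell array. Its change was 0.32 (SE 0.37, limma adjusted p = 0.605). RANBP3, a cofactor of XPO1, had a change of 0.76 (SE 0.54, limma adjusted p = 0.379).

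RANBP10 and RANBP9 carry Ran-binding names but are known as scaffold subunits of a ubiquitin ligase. One rose, and the other had a negative change just short of the threshold. RANBP10 had signals of 104, 70.3 and 15.5 in oocytes, 119 and 15.2 in 1-cell embryos, 9.67, 22.0, 17.5 and 3757 at 2, 4, 8 and 16 cells, then 1921, 2230.4 and 2559 in morulae, and 1152, 701 and 1742 in blastocysts. At this probe set the 2-, 4- and 8-cell arrays lay within the oocyte range or below it. The 16-cell and later arrays were high. RANBP10 rose by 5.02 (SE 0.66, limma adjusted p = 6.32e-04), and so did a dimmer probe set, by 3.28 (limma adjusted p = 0.00969), while the dimmest had 0.81 and did not pass. The dimmer probe set that rose was not high on the 16-cell array. It had 21.3 there, against 183, 151 and 431 in morulae, and 4.97 on blastocyst 3. Without the arrays numbered 3 the brightest probe set rose by 4.36 (adjusted p = 0.00303), and within the arrays without and with spike-in signal its change was 4.12 and 5.63. RANBP9 had 9035, 10406 and 9014 in oocytes and, in morulae, 4071, 3416 and 1109, without overlap, and a change of -1.92 (SE 0.61, limma adjusted p = 0.0539). With the replicate block RANBP9 fell (adjusted p = 0.0128).

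**Figure D3:**
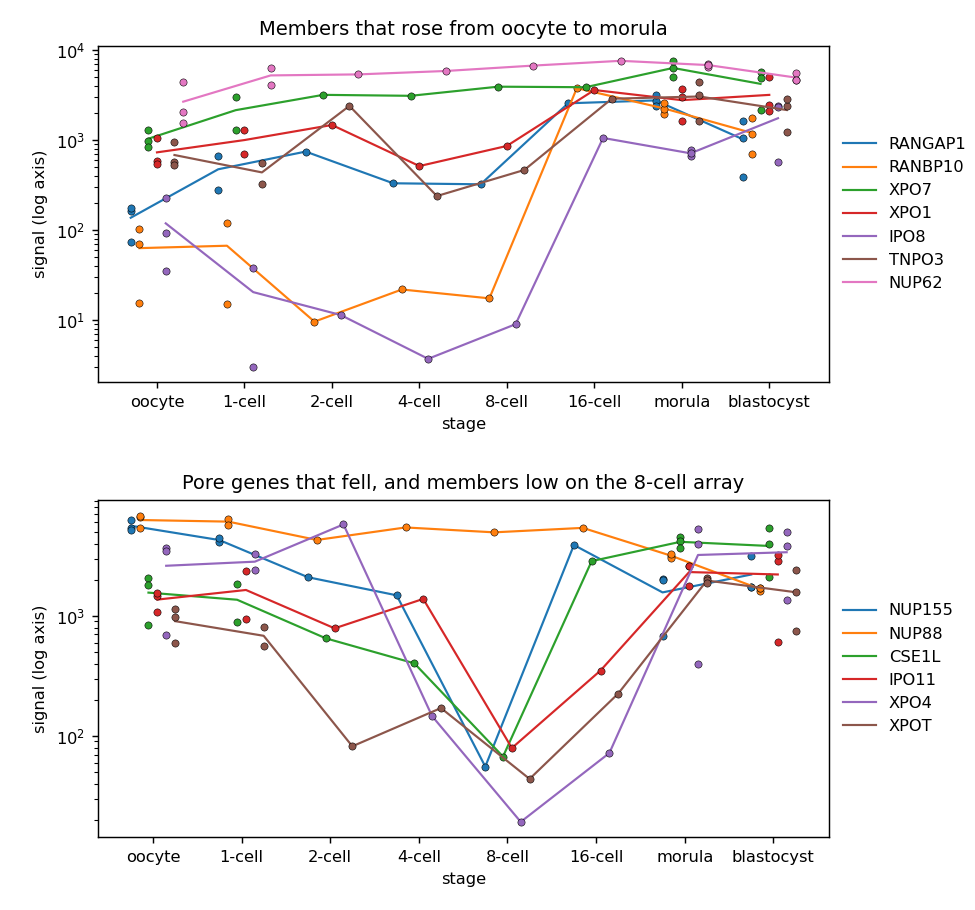
Signal (vertical axes, log scale) at the 8 stages, with points for arrays and lines for stage means. The top panel has the 7 members that rose from oocyte to morula, of which RANBP10 steps from 17.5 to 3757 between the 8- and 16-cell arrays, and the bottom panel has NUP155 and NUP88, which fell, and 4 transport receptors with low values on the 8-cell array, where XPO4 is at 19.2.

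Pore genes had mostly negative and receptors mostly positive changes. Of 22 pore genes 15 had negative changes, with a median of -0.50, whereas 14 of the 16 receptors other than importin alpha had positive ones, with a median of 0.81. Of all genes 56.8% had a positive change. Calls were few: 2 pore genes fell and 1 rose, or 9.09% and 4.55%. Of the 16 receptors none fell and 4 rose, or 25%. Of all genes 8.67% fell and 17.8% rose. With quantile normalization 16 pore genes were negative and 7 fell (11.3% of all genes fell), with centring 15 and 5 (11.1%), and with the replicate block 15 and 5 (10.6%). Without the arrays numbered 3, 13 were negative, 6 fell (12.9%) and 4 rose (26.4%). The receptors had 13 positive changes under both scalings, and 15 without the arrays numbered 3. IPO4, whose level could not be resolved, is among the 16, and without it 13 of 15 were positive, with a median of 0.83. The difference between these groups of genes was not tested.

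**Figure D4:**
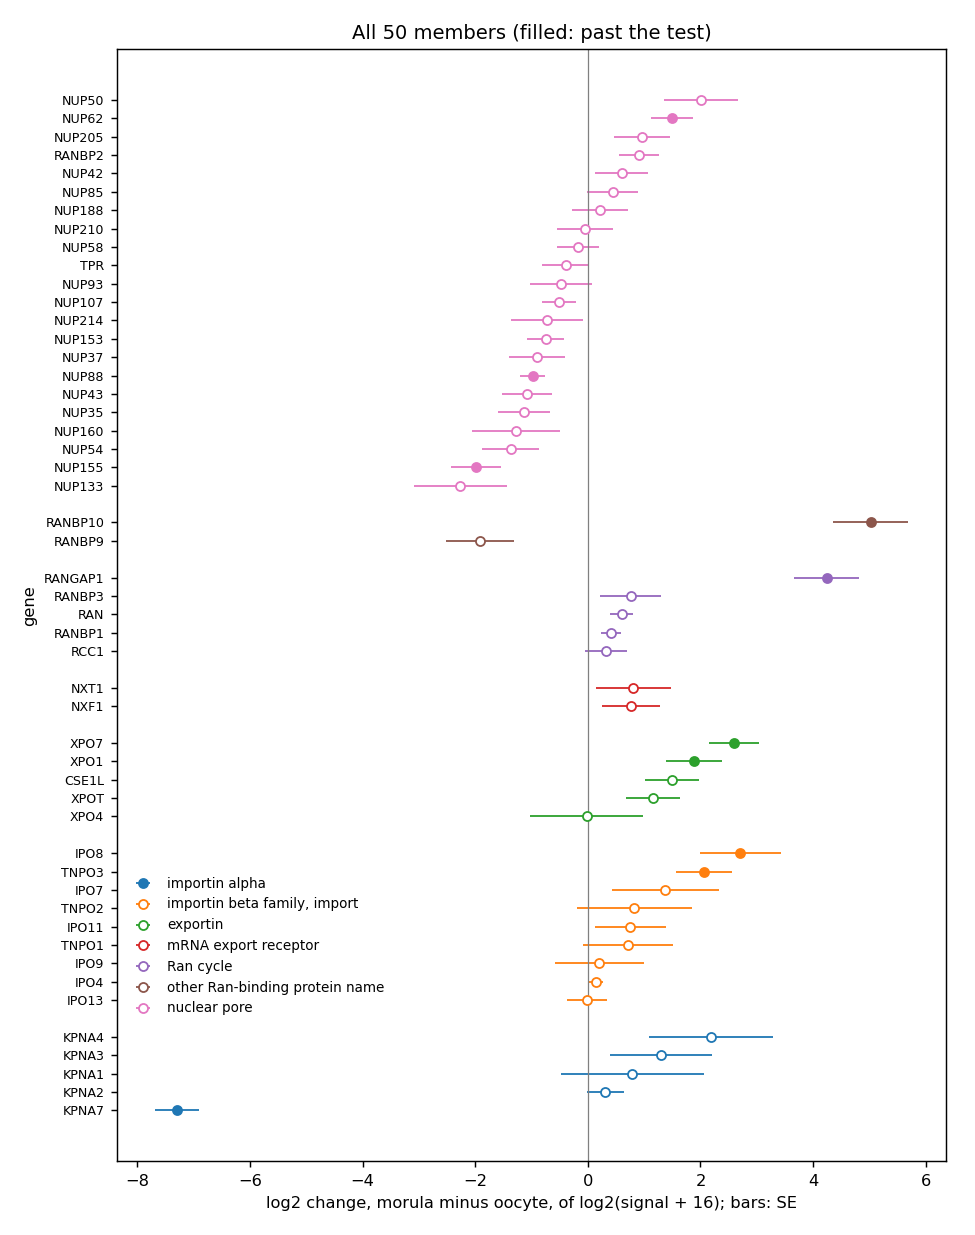
Log2 change from oocyte to morula of all 50 members (horizontal axis, difference of log2(signal + 16), bars are SE), ordered by role, where filled points passed the test. KPNA7 lies at -7.30 and RANBP10 at 5.02, and 15 of the 22 pore genes lie left of 0.

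The Y complex, the scaffold ring that seeds pore assembly, had 5 negative changes among 6 members and none called. NUP133 had 1759, 1261 and 251 in oocytes and, in morulae, 216, 189 and 97.6, without overlap, and a change of -2.27 (SE 0.83, limma adjusted p = 0.0866). With the replicate block NUP133 fell (adjusted p = 0.00800). NUP160 had a change of -1.27, NUP43 -1.08, NUP37 -0.91 and NUP107 -0.52, with NUP43 alone of these without overlap. NUP85 was the exception at 0.44. In the inner ring of the pore scaffold, NUP155 fell by 1.98 (SE 0.45, limma adjusted p = 0.0120). Its signals were 5447, 6292 and 5172 in oocytes, 4129 and 4435 in 1-cell embryos, 2099, 1484, 55.6 and 3894 at 2, 4, 8 and 16 cells, then 2018, 2003 and 686 in morulae, and 1732, 3149 and 1751 in blastocysts. The morula arrays lay below all oocyte arrays, and the 8-cell array was far below every other. The change was -3.03 within the arrays with spike-in signal and -1.43 within those without it. A dim second probe set of NUP155 had -0.63 and did not pass. NUP35 had -1.13 and NUP93 -0.48, while the large scaffold genes NUP205 and NUP188 had 0.96 and 0.22, none of them called. With the replicate block NUP35 fell (adjusted p = 0.0156).

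On the cytoplasmic side of the pore, NUP88 fell, with little spread between the arrays of a stage. Its signals were 5406, 6626 and 6842 in oocytes, 6457 and 5739 in 1-cell embryos, 4289.9, 5453, 4965 and 5408 at 2, 4, 8 and 16 cells, then 3149, 3065 and 3279.9 in morulae, and 1604, 1705 and 1716 in blastocysts, with no overlap between oocytes, morulae and blastocysts. NUP88 fell by 0.98 (SE 0.23, limma adjusted p = 0.0136) from oocyte to morula, and a dimmer probe set fell by 1.61 (limma adjusted p = 0.00694). The call at the brighter one was lost without morula 2 (adjusted p = 0.0534). From morula to blastocyst it had a further -0.91 that did not pass (SE 0.23, limma adjusted p = 0.232), and the dimmer probe set had 0.07. NUP214, the partner of NUP88, had 578, 607 and 1229 in oocytes and, in morulae, 313, 317 and 906, which overlapped, and a change of -0.73. A second probe set of NUP214 had 2.56, also not called. RANBP2, the pore filament protein that binds RANGAP1, had 98.1, 141 and 175 in oocytes and, in morulae, 241, 289 and 274, without overlap, and a change of 0.91 (SE 0.35, limma adjusted p = 0.106).

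NUP62, whose FG repeats fill the central channel, was the pore gene that rose. Its signals were 1534, 2049 and 4401 in oocytes, 6287 and 4125 in 1-cell embryos, 5341, 5828, 6688 and 7557 at 2, 4, 8 and 16 cells, then 6506, 7024 and 6799.6 in morulae, and 4615, 5562 and 4619.9 in blastocysts. Only 1 oocyte array reached the range of the later stages. NUP62 rose by 1.49 (SE 0.37, limma adjusted p = 0.0192), and a dim second probe set had -0.28. The change was 2.13 within the arrays without spike-in signal and 1.17 within those with it. Leaving out oocyte 1, oocyte 2, morula 1 or morula 2 ended the call (adjusted p = 0.0648, 0.0672, 0.0526 and 0.0637) and when the other stages were left out of the fit (adjusted p = 0.0632). The other channel genes, NUP54 and NUP58, had -1.37 and -0.17 and were not called. With the replicate block NUP54 fell (adjusted p = 0.0488). On the basket side, NUP50, which helps importin alpha release cargo, had 69.7, 129.6 and 550.5 in oocytes, 369.6 and 326 in 1-cell embryos, 895, 1138, 2129 and 3597 at 2, 4, 8 and 16 cells, then 995, 962 and 454 in morulae, and 588, 998 and 714 in blastocysts. The single arrays of the 2- to 16-cell stages were each above the one before, and the 16-cell array was the highest of all, with a change to the morula of 2.01 (SE 0.65, limma adjusted p = 0.0585). NUP153, of the basket, had -0.75 and no overlap, without passing (SE 0.33, limma adjusted p = 0.153), and TPR had -0.39 (SE 0.42, limma adjusted p = 0.577). For NUP210, a pore protein anchored in the membrane, the brightest probe set had -0.05 while a second fell by 1.59 (limma adjusted p = 0.0278) and the dimmest rose by 1.05 (limma adjusted p = 0.0210), so its direction depended on the probe set.

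**Figure D5:**
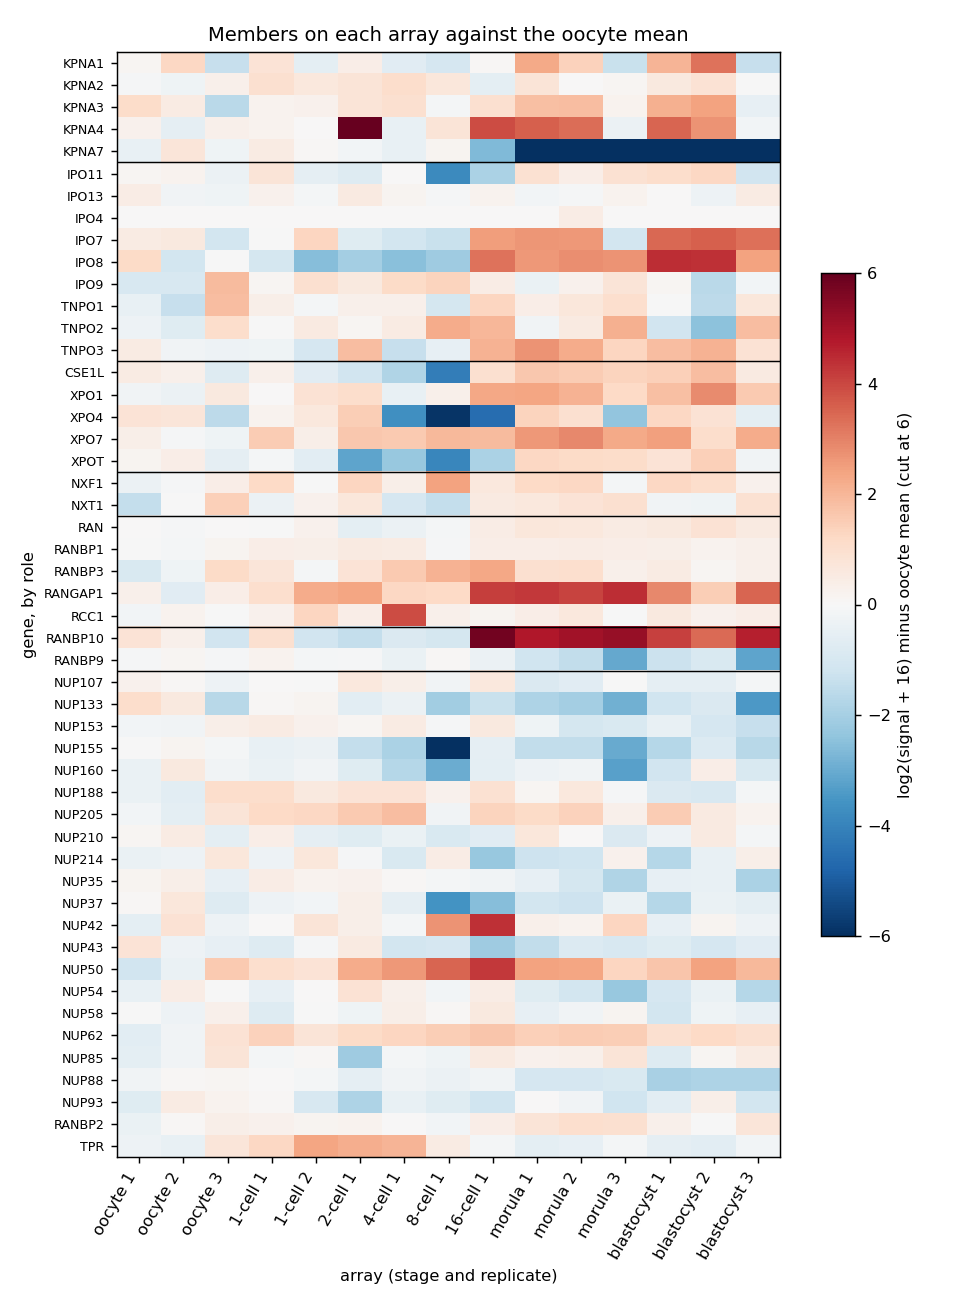
Log2(signal + 16) of each member minus its mean over the oocyte arrays (colour, cut at 6 in either direction), for the 15 arrays (horizontal axis) and the 50 genes by role (vertical axis). KPNA7 turns blue at the 16-cell array, RANGAP1 and RANBP10 are deep red from there to the morulae, and CSE1L, IPO11, XPO4, XPOT and NUP155 are blue on the 8-cell array.

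No member passed the test between oocytes and 1-cell embryos. With limma 0 of 50 were called, against 0.284% of all genes higher and 0.0655% lower, and 4 members had an unadjusted p under 0.05, or 8% against 9.02% of all genes. TPR, which forms the filaments of the basket, was the closest. Its signals were 39.8, 35.5 and 99.1 in oocytes, 146 and 343 in 1-cell embryos, 301, 270.5, 81.1 and 48.7 at 2, 4, 8 and 16 cells, then 30.4, 33.2 and 47.7 in morulae, and 30.9, 29.2 and 45.5 in blastocysts. Both 1-cell arrays and the 2- and 4-cell arrays lay above every oocyte, morula and blastocyst array. The change from oocyte to 1-cell embryo was 1.80 (SE 0.47, limma adjusted p = 0.213), and a dimmer probe set had 2.45. That probe set did not share the pattern up to the 4-cell array. It had 29.15 and 262 in 1-cell embryos, 1.21 and 10.4 on the 2- and 4-cell arrays, and 73.3 on blastocyst 2. RANGAP1 and NUP62 had changes of 1.62 and 1.08, and IPO8 -1.79. The arrays of both stages did not overlap for 8 members, or 16% against 22.6% of all genes.

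The step from morula to blastocyst likewise called 0 of 50 members with limma, against 0.175% of all genes higher and 0.0874% lower. Of the members 2 had an unadjusted p under 0.05, or 4% against 9.31% of all genes, and these were NUP88 and RANGAP1. For 10 members, or 20% against 17% of all genes, the arrays did not overlap. Changes ran from -1.63 for RANGAP1 to 2.07 for IPO7, with a median of -0.08 against -0.04 over all genes.

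The single 8-cell and 16-cell arrays were compared by size of difference, without a test. Of 50 members 12 were at least 4-fold higher on the 16-cell than on the 8-cell array and 2 at least 4-fold lower, or 24% and 4%, against 19.1% and 6.16% of all genes. Over 4 alternative settings the count of those higher ran from 7, with quantile normalization, to 14. The share of all genes was not taken under these settings, so these counts cannot be set against it. RANBP10, NUP155 and IPO8 had the largest positive differences, at 6.81, 5.77 and 5.42 on the log2 scale. KPNA7 and NUP214 were lower, at -2.80 and -2.74, followed by NXF1 at -1.79, which was at 456 on the 8-cell array. RANBP10, NUP155, IPO8 and NUP214 had other, dimmer probe sets, which did not show these steps. On the 8-cell and then the 16-cell array, those of RANBP10 had 9.94 then 21.3, and 32.6 then 20.5. That of NUP155 had 58.6 then 9.49, that of IPO8 171 then 146, and that of NUP214 37.9 then 44.7. The other members past 4-fold higher were CSE1L, IPO7, KPNA4, NUP160, RANGAP1, TNPO1, TNPO3, XPO1 and XPOT. Of the 19 cumulus and granulosa markers 3 were at least 4-fold higher on the 16-cell array, VIM at 1959, COL1A2 at 2432 and LUM at 1397, against 10.0, 76.6 and 4.92 on the 8-cell array. Another 2 were at least 4-fold lower, STAR at 537 against 4472 and TNFAIP6 at 12.9 against 641, and 14 were neither. The part of these markers in the members' differences was not tested.

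Some members were low on the 8-cell array itself. There, 5 members lay at least 4-fold below every array of the replicated stages, or 10% against 1.84% of all genes, a count made after the values were seen. They were NUP155 at 55.6, CSE1L at 67.3, XPOT at 43.9, IPO11 at 79.3 and XPO4 at 19.2. CSE1L and NUP155 were back at 2858 and 3894 on the 16-cell array. XPO4, IPO11 and XPOT were still at 72.1, 351 and 226 there and higher in morulae, where IPO11 had 2583, 1784 and 2587. XPOT was already low on the 2-cell array, at 82.0, and XPO4 on the 4-cell array, at 146. Dimmer probe sets did not all follow. One of XPOT had 335 on the 2-cell array, against 89.2, 183 and 7.42 in oocytes. One of XPO4 had 460 on the 4-cell array, against 16.2, 21.9 and 721 in oocytes. That of NUP155 had 58.6 on the 8-cell array, above its oocyte arrays, while one of CSE1L had 55.3 and that of IPO11 4.72, below theirs. The oocyte transcript UCHL1, no member and chosen after its values were seen, was also low there, with 6831 on the 4-cell, 61.3 on the 8-cell and 5382 on the 16-cell array. It was the only measured oocyte marker that was, and the others had between 1122 (GDF9) and 9661 (ZP2) on the 8-cell array. The 8-cell array had a GAPDH ratio of 0.0571 and an eIF-4E ratio of 0.233, both within the range of the oocyte arrays. The part of RNA quality was not tested.

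Only 3 members peaked on a single array. KPNA4 on the 2-cell, RCC1 on the 4-cell and NUP42 on the 16-cell array, at 1012 against 16.8, 76.5 and 25.1 in oocytes and 45.6, 41.4 and 106 in morulae, were at least 4-fold above every replicated-stage array, and no member was on the 8-cell array, where 0.557% of all genes were. The shares of all genes that did so were 0.59%, 0.306% and 1.26%, and 1 member in 50 is 2%. For KPNA4 the second probe set had no such peak, with 18.8 on the 2-cell array.

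Other genes of nuclear transport, RNA export and the nuclear lamina that the member rule leaves out were counted from a list. Of 35 measured of 57 listed, 8 rose, none fell and 27 did not pass from oocyte to morula, with a median change of 0.48. Over all genes 17.8% rose and 8.67% fell, with a median of 0.14. THOC5 and ALYREF, which couple transcription to messenger RNA export, rose by 3.99 and 1.81. SNUPN, the import adaptor of spliceosomal particles, rose by 2.76, and the cap-binding subunit NCBP2 by 3.00. The lamin gene LMNA rose by 3.05 (SE 0.82, limma adjusted p = 0.0263), and RANGRF, SENP2 and CHTOP by 1.72, 1.74 and 1.48. None of the 35 was called between oocytes and 1-cell embryos or between morulae and blastocysts.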

How the data were processed

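Total RNA of 15 bovine samples was measured on a 1-colour Affymetrix array, with stages taken from the sample titles. The deposited values are signal intensities per probe set on a linear scale, from 0.39 to 20787.94, made by the authors with a summary and scaling method not given in the sources used here. Array means were 553 to 713 and medians 39.7 to 62.1, and the number of arrays limits the precision.

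The 112 control probe sets were left out, and log2(signal + 16) of the other 24016 was fitted with limma 3.58.1 (R 4.3.3), with 1 mean per stage over all arrays, an intensity trend, 7 residual degrees of freedom and p-values adjusted by Benjamini-Hochberg across every tested probe set. The pseudocount understates changes of dim genes. No values were scaled further. Symbols came from the platform annotation, where 13292 probe sets had 1 gene symbol and 86 had several, and all 50 members matched RefSeq symbols. Percentages of all genes refer to 9155 genes, each by its brightest probe set. The 8- and 16-cell arrays were compared by a 4-fold difference, and KPNA7 with other importins alpha by an exact permutation test (scipy 1.17.1).

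The importins alpha, RAN, RCC1, RANGAP1, CSE1L, XPO1, NXF1 and TPR were named by rule. So were called members whose arrays did not overlap, and the 3 largest differences each way between the 8- and 16-cell arrays. Other members were given by role. Members, lists and the rule were chosen with earlier results of these data known, and 57 further pathway genes and the cell type markers are such lists. Of 7 measured sperm markers 1 (ODF2) and of 5 blood and immune markers 1 (HBB) rose from oocyte to morula.

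Tests were fitted without pairing, and the replicate number as a block is an alternative, given where it changes a call. The pairing was checked on the data: deviations of same-numbered arrays from stage means correlated at 0.142, 0.107 and 0.182 between oocytes and morulae and at 0.195, 0.106 and 0.306 between morulae and blastocysts. For oocytes and 1-cell embryos the values were 0.183 and -0.115. Spike-in classes were divided at a mean control signal of 100.0. On simulated data with 200 changed of 24016 probe sets, the morula and oocyte comparison recovered 14% of those raised by 2 on the log2 scale. It recovered 70% of those raised by 4 and 0 of those raised by 1, with 2 false calls. In the measured data a far larger share was called, 17.8% of all genes higher and 8.67% lower, which makes the adjusted threshold less strict. The simulated rates therefore do not carry over, and NUP88 was called at a change of -0.98. Smaller changes can still be missed.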

Additional observations from a re-analysis of the deposited data

How the results depend on the processing

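From oocyte to morula, between 3 and 9 members were called higher and between 2 and 4 lower when 1 array was left out. In the same fits 13.1% to 19.1% of all genes were called higher and 6.06% to 9.66% lower. Members called higher numbered 15 without the arrays numbered 3 (26.4% of all genes), 11 without the dimmest probe sets (23.4%) and 4 with the mean of a gene's probe sets (17.3%). Members called lower numbered 8 without the arrays numbered 3 (12.9% of all genes), 9 with quantile normalization (11.3%), 7 with median centring (11.1%), 7 with the replicate number as a block (10.6%) and 6 with the spike-in class as a block (10.1%). Beyond CSE1L, KPNA3, NUP133, NUP35, NUP54 and RANBP9, the replicate block changed no member's call. With the mean of a gene's probe sets, IPO8, NUP62 and XPO7 were no longer called, at 1.24, 0.61 and 1.35 (limma adjusted p = 0.136, 0.356 and 0.0830). With a pseudocount of 1, IPO8 was not called either (adjusted p = 0.0558). Members at least 4-fold higher on the 16-cell than on the 8-cell array numbered from 7, with quantile normalization, to 14 over 4 alternatives. Again no share of all genes was taken there. KPNA7, RANGAP1, RANBP10 and NUP155 were called under every alternative that gave a test. The cause of these differences between settings was not tested. The dimmest members, such as IPO4 and the oocyte values of KPNA4, lie where a change cannot be resolved.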
